A study of Rattus norvegicus with 24 samples.

Results

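The comparison is between sciatic nerves labelled Tg and sciatic nerves labelled Wt at postnatal day 18 (P18). It uses 8 of the 24 libraries of the series, 4 labelled Tg and 4 labelled Wt, taken by the genotype and age in their labels. The genes described are those outside lipid metabolism, in 5 programmes: transcription factors, signalling, matrix, immune genes and axonal-type genes. Wt animals were wild-type rats. Tg animals came from the Pmp22 transgenic line SD-Tg(Pmp22)Kan, which carries extra copies of the Pmp22 gene and serves as a model of the neuropathy CMT1A. The remaining libraries are nerves of both genotypes at postnatal day 6 (P6) and embryonic day 21 (E21), again 4 of each label. Nerves were sequenced whole after removal of the epineurium, so that fewer cells of a type and less RNA per cell cannot be told apart.

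Schwann cells that wrap large axons switch from an immature, proliferating state to a myelinating one after birth, under transcription factors such as Egr2, Sox10 and Pou3f family members. Jun, Sox2 and the low-affinity neurotrophin receptor Ngfr mark immature Schwann cells and the repair cells that form after injury. Axonal neuregulin acting on Erbb2 and Erbb3 drives much of this switch, and the cells also make a basement membrane and attract macrophages when a nerve is damaged.

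Levels are given as normalized CPM, the CPM of a gene after scaling libraries by TMM factors, and n is 4 libraries per label throughout. Total counts ran from 9700631 to 19458444, with the lowest total in Wt replicate 3. Adjusted p-values come from the quasi-likelihood test of edgeR, adjusted by the Benjamini-Hochberg method over the 15889 genes tested, and a gene was called when its adjusted p was under 0.05. A log2 fold change is labelled Tg over labelled Wt, with its standard error (SE). The libraries of a group are biological replicates, and nothing in the labels says that their numbers link animals across groups.

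Pmp22 was examined first because it checks the labels. It had 44960, 45610, 46900 and 46020 normalized CPM in libraries labelled Wt and 23850, 24990, 24590 and 24190 in those labelled Tg. The groups did not overlap and Pmp22 was lower in all libraries labelled Tg (log2 fold change -0.91, SE 0.07, adjusted p = 9.19e-10), opposite to what the label leads to expect. Directions below are accordingly those between libraries by their labels. AC130064.1, in contrast, separated the labels: it had at most 1 count in each library labelled Wt and was at least 46.4-fold higher in those labelled Tg, against a floor of 3 counts per library. Its fitted log2 fold change of 8.77 depends on the single Wt count, and was 10.7 without Wt replicate 1.

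Some libraries stood apart in ways the labels do not explain. Y-linked transcripts were present in Wt replicate 1 and Tg replicates 1, 2 and 4, and near 0 in the other 4 libraries, so that they are unevenly spread over the labels. Skeletal muscle markers summed to 574 normalized CPM in Wt replicate 2 against 14.3 to 71.6 in the other libraries, and erythrocyte markers to 2000 in Tg replicate 3 and 808 in Wt replicate 1 against 97.9 to 390. Adipocyte markers summed to 144 in Tg replicate 3 and 208 in Tg replicate 4, against 351 to 589 in the other libraries. Myelin was checked by its defining genes together. The sum of 21 myelin protein genes was 162000 to 176000 in the libraries labelled Wt and 69000 to 74000 in those labelled Tg.

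The scaling decides how many genes appear to rise. The myelin protein genes with Pmp22 took 17.9% to 18.9% of the counts in the libraries labelled Wt and 9.29% to 10.1% in those labelled Tg, so the remaining genes share a larger part of each Tg library. TMM factors, which set most genes to no change, averaged 0.856 and 1.02. With TMM, 4103 genes (25.8%) were called, 1992 of them (12.5% of those tested) were higher and 2111 (13.3%) lower in the libraries labelled Tg. When libraries were scaled to total counts only, the median over all genes shifted to a log2 fold change of 0.25 from 0.0023, 6153 genes (38.7%) were called higher and 836 (5.26%) lower. TMM factors computed without the myelin genes and the 100 most abundant genes gave 2143 higher and 1970 lower. The values below use TMM, and the count under total counts stands beside each programme.

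**Figure D1:**
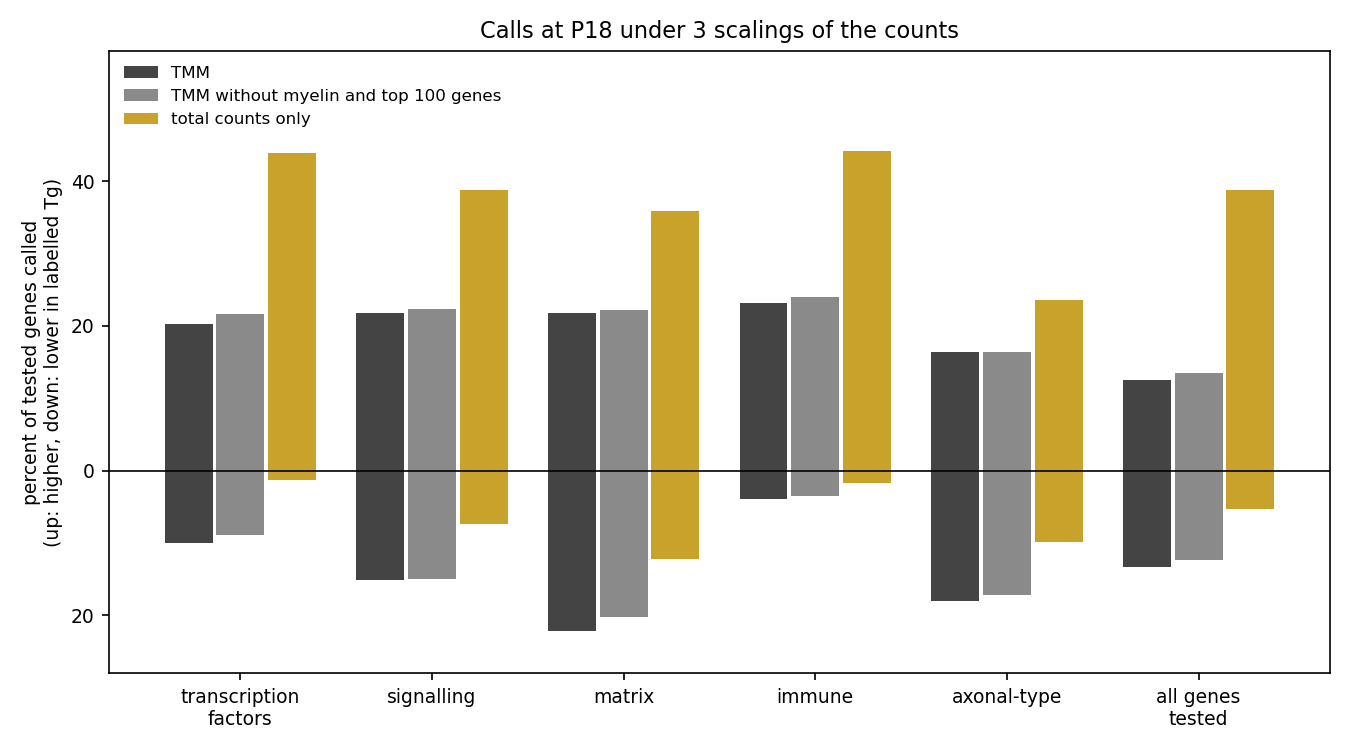
Percent of tested genes called at P18 in each programme and over all genes, under 3 scalings. Bars above 0 are genes higher and bars below 0 genes lower in the libraries labelled Tg. TMM and TMM without the myelin and most abundant genes give similar bars, whereas total counts only move the calls upward in every programme, from 1992 to 6153 higher genes overall.

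Not all differences need a test to be seen: for 3712 genes (23.4%) the 4 libraries of one label all lay above the 4 of the other. Most genes named below were chosen among these, so their separation is a condition of the choice and not a finding. At P6 the same test called 36 genes (0.227%). The genotype difference at P18 differed from that at P6 for 1647 genes (10.4%). Over the 5 programmes together, 273 of 1324 tested genes were higher and 181 lower (20.6% and 13.7%, against 12.5% and 13.3% of all genes), with a median log2 fold change of 0.02 against 0.00 for all genes tested. Because the lists were assembled with earlier results of these data known, these shares describe the lists and do not test them.

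**Figure D2:**
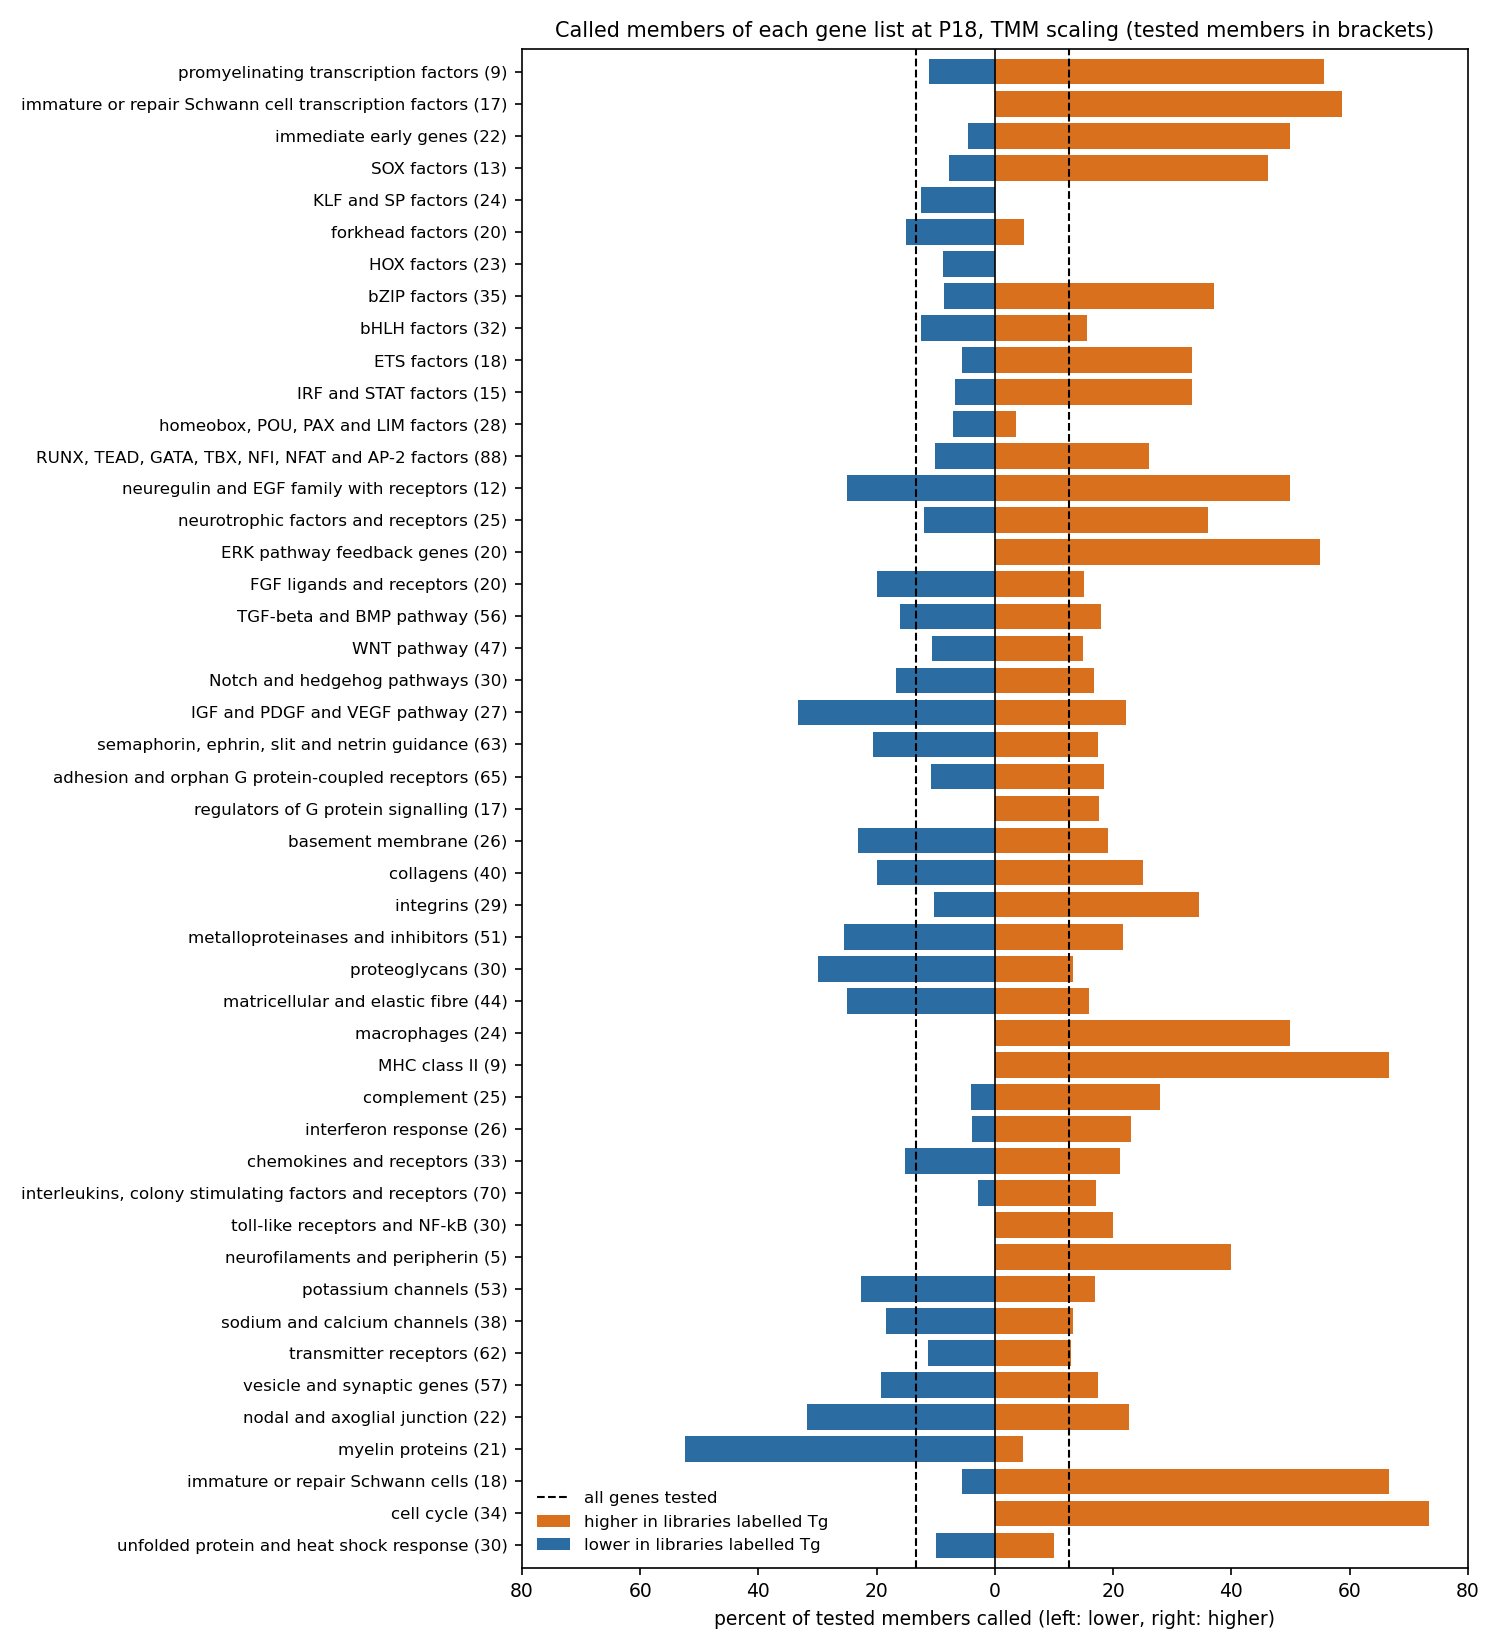
Percent of the tested members of each gene list called at P18 with TMM scaling. Bars to the right are members higher and bars to the left members lower in the libraries labelled Tg, and the dashed lines mark the shares of all genes tested, 12.5% higher and 13.3% lower. Cell cycle, repair Schwann cell and MHC class II genes extend farthest to the right, and myelin protein genes farthest to the left.

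Of 6 genes picked as markers of the P18 comparison, Nefl, Cxcl14 and Ngfr were higher and St8sia2, Scd1 and Kcna6 lower in the libraries labelled Tg. They were picked for this difference, which is given as a description. Nefl, the light neurofilament subunit, had 17.9, 10.5, 13.1 and 22.5 normalized CPM in libraries labelled Wt and 323, 496, 634 and 590 in those labelled Tg (log2 fold change 4.99, SE 0.27). Cxcl14, a chemokine, had 5.51, 9.7, 9.73 and 7.96 against 226, 156, 258 and 199 (log2 fold change 4.67, SE 0.21). In both genes the lowest Tg library lay more than 10 times above the highest Wt library. Ngfr had 40.6, 51.3, 48.8 and 39.3 against 217, 182, 196 and 228 (log2 fold change 2.19, SE 0.10). St8sia2, which builds polysialic acid on the adhesion molecule Ncam1, had 12.3, 11.8, 9.49 and 11.7 against 0.482, 0.375, 0.177 and 0.274 (log2 fold change -5.12, SE 0.32). Scd1, a fatty acid desaturase, had 278, 295, 476 and 306 against 51.0, 18.5, 17.3 and 24 (log2 fold change -3.63, SE 0.40). The Scd1 libraries were the most uneven of the 6, with Wt replicate 3 and Tg replicate 1 high within their groups. Adipocyte markers summed to 583 normalized CPM in Wt replicate 3, against 351 to 569 in the other Wt libraries. In Tg replicate 1 they summed to 589, against 144 to 429 in the other Tg libraries. Their part in the Scd1 values was not tested. Kcna6, a voltage-gated potassium channel subunit, had 3.91, 2.71, 2.40 and 3.66 against 0.321, 0.499, 0.354 and 0.617 (log2 fold change -2.81, SE 0.28).

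These genes took different courses over age. Ngfr was at 342 normalized CPM in the libraries labelled Wt at E21, 109 at P6 and 45.0 at P18, whereas the libraries labelled Tg went from 107 or less in each library at P6 to 206 at P18. Nefl in the libraries labelled Wt went from 124 at P6 to 16 at P18, and in those labelled Tg from 178 to 511. Cxcl14 was under 4 normalized CPM in every library before P18. At P6 none of the 6 was called between genotypes, and the largest log2 fold change there was that of Cxcl14 (1.11, adjusted p = 0.107), whose libraries did not overlap there (0.893 to 1.57 normalized CPM labelled Wt and 2.21 to 3.04 labelled Tg).

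**Figure D3:**
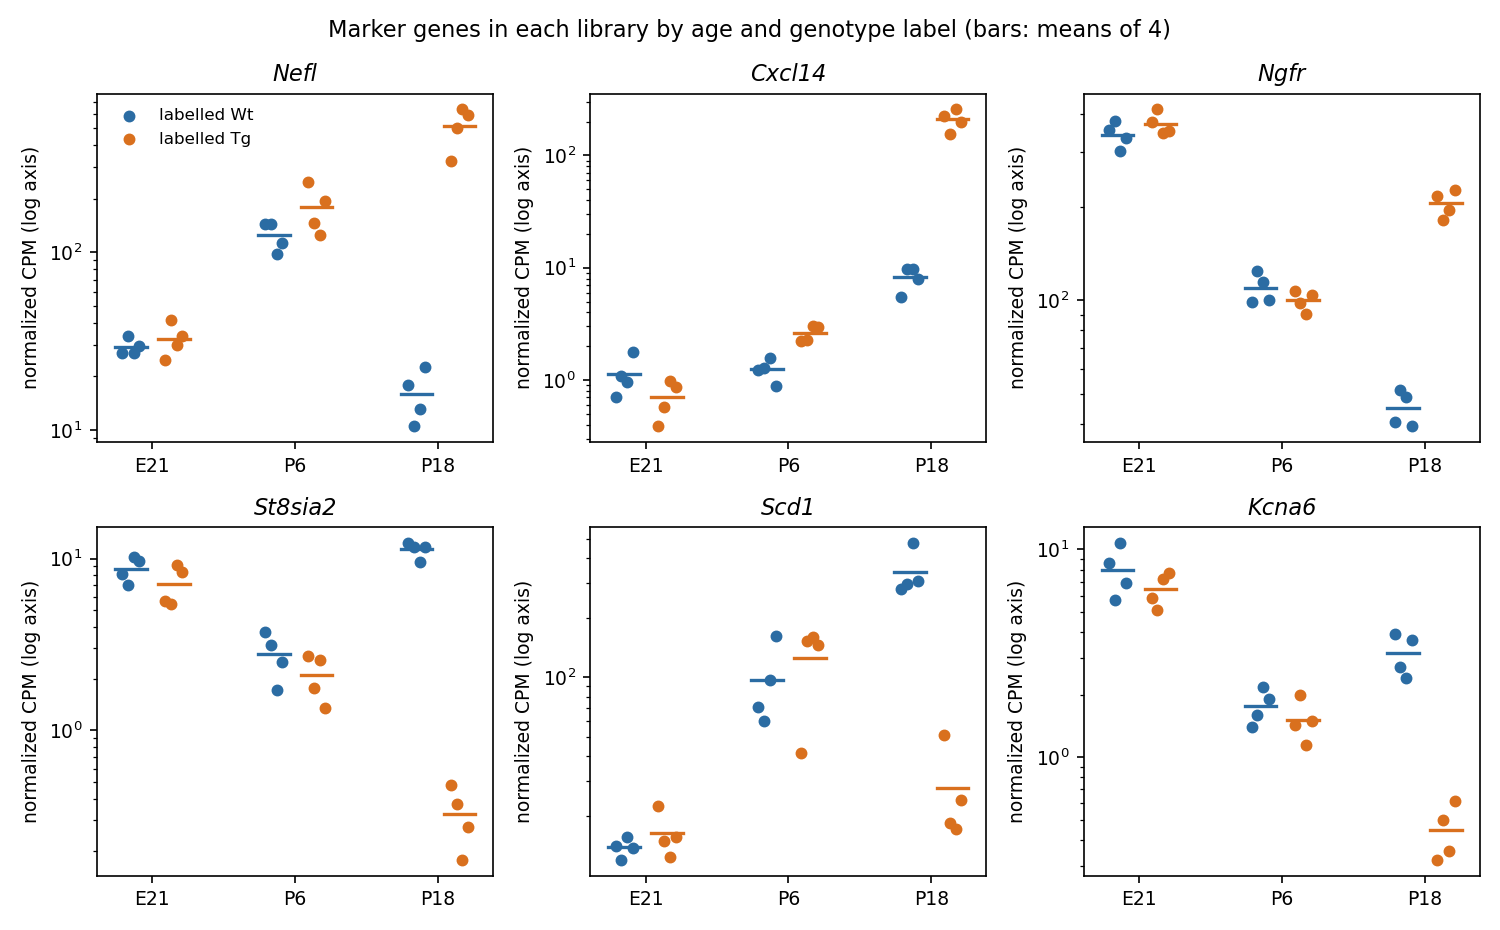
Normalized CPM (log axis) of the 6 marker genes in each library at E21, P6 and P18, by genotype label, with bars at the mean of 4. The labels overlap at E21 and, except for Cxcl14, at P6, and they separate at P18, where Nefl, Cxcl14 and Ngfr are higher and St8sia2, Scd1 and Kcna6 lower in the libraries labelled Tg.

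Over all genes, the largest differences included genes of no list. Epcam, an epithelial adhesion molecule, had 0.266, 0.120, 0 and 0.316 normalized CPM in libraries labelled Wt and 9.47, 5.99, 9.02 and 8.16 in those labelled Tg (log2 fold change 5.38, SE 0.41, adjusted p = 8.48e-10). Ucn2 (urocortin 2), a peptide of the CRH family, had 0.444, 0.301, 0 and 0.253 against 7.79, 7.05, 8.90 and 8.51 (log2 fold change 4.89, SE 0.50, adjusted p = 1.17e-07). In the libraries labelled Wt these levels were 5 counts or fewer, so that the size of both changes is poorly fixed. Ptprn, a protein of dense-core vesicles, had 4.44, 3.86, 0.480 and 1.77 against 30.3, 41.7, 38.4 and 29.1 (log2 fold change 3.68, SE 0.35). The paraoxonase gene Pon1 rose by a log2 fold change of 3.96 (SE 0.37), or 4.82 without Wt replicate 2. On the lower side, Lrp2, a large endocytic receptor, had 14.9, 20.8, 19.2 and 17.3 against 3.13, 4.25, 2.54 and 3.64 (log2 fold change -2.41, SE 0.22), and Maob, a monoamine oxidase, 241, 208, 321 and 316 against 56.1, 61.1, 47.8 and 53.3 (log2 fold change -2.31, SE 0.15).

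Ngfr belongs to a list of 18 tested markers of immature or repair Schwann cells, with a median log2 fold change of 0.82. Of these 12 were higher and 1 lower (66.7% and 5.56%, beside 12.5% and 13.3% of all genes), or 13 and 1 with total counts only. The lower one was Igfbp2, an IGF-binding protein (log2 fold change -1.85). Chl1, a cell adhesion molecule, and Gfap, an intermediate filament of non-myelinating and repair Schwann cells, rose from 19.0 ± 2.84 to 64.7 ± 8.33 and from 40.1 ± 3.47 to 86.4 ± 8.65 normalized CPM (log2 fold changes 1.76 and 1.10).

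Promoter sequences are shown for every marker gene with an entry and for the 6 genes of no list described above. They are the 250 bases before the gene start, 5′ to 3′ on the gene's strand, from RefSeq with build GRCr8, whereas the counts were made on rn6. Capitals mark the AP-1 letters TGANTCA, searched on both strands. AP-1 is the family that holds Fos, Jun and Junb, and its part in these differences was not tested. Cxcl14 lies at chr17:8322900-8323149 (plus strand), Epcam at chr6:12649679-12649928 (minus), Ucn2 at chr8:118515861-118516110 (plus), Ptprn at chr9:84204824-84205073 (minus) and Pon1 at chr4:34287861-34288110 (minus). Of the genes lower in the libraries labelled Tg, St8sia2 lies at chr1:137247754-137248003 (minus), Kcna6 at chr4:161262353-161262602 (minus), Lrp2 at chr3:74754536-74754785 (minus) and Maob at chrX:8490155-8490404 (plus).
Cxcl14: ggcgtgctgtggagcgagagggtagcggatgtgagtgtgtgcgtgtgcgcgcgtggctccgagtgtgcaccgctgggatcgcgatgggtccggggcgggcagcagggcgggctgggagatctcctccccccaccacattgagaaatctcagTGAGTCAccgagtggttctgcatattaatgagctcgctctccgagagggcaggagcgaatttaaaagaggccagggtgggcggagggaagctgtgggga
Epcam: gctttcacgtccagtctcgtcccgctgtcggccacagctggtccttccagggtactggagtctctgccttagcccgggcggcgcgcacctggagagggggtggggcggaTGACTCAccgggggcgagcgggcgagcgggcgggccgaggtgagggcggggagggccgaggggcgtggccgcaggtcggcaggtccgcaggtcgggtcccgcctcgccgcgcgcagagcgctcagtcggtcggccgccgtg
Ucn2: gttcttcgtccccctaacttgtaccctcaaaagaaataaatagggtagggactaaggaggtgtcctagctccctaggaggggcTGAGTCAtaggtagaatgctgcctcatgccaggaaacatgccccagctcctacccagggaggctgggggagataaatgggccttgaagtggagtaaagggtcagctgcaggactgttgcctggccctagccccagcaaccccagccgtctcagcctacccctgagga
Ptprn: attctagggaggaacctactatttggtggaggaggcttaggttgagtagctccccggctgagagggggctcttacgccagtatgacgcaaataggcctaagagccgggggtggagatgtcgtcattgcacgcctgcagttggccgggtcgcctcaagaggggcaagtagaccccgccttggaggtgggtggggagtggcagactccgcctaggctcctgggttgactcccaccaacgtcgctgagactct
Pon1: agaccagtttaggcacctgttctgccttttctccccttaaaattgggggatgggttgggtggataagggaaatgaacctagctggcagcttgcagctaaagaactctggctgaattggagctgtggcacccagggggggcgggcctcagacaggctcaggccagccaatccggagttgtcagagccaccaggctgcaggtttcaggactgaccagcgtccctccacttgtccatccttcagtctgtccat
St8sia2: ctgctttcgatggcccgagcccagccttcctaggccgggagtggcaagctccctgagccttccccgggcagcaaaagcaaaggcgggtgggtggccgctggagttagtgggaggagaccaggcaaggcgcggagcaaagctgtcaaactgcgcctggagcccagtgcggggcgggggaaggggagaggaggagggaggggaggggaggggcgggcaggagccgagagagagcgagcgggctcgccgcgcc
Kcna6: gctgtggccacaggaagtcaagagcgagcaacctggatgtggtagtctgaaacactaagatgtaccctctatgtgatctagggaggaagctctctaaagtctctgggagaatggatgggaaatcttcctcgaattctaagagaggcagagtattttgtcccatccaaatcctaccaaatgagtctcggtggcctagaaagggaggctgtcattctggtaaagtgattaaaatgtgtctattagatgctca
Lrp2: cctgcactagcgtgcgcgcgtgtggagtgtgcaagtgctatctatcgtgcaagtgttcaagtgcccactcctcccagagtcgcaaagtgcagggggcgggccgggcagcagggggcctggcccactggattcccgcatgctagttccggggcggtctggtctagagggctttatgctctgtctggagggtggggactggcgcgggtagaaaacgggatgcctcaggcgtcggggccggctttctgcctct
Maob: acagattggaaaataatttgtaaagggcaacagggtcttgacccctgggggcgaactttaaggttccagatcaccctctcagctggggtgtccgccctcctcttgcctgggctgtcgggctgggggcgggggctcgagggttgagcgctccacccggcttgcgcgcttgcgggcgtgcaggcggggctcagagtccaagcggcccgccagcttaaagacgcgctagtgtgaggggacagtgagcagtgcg
The motif starts 99 bases before the gene start in Cxcl14, 141 in Epcam and 167 in Ucn2, and the other 6 windows, of genes higher and lower alike, do not hold these letters. Over all genes, 6.34% of 33469 promoters in the table held the motif, and 4.58% of the 11845 promoters of tested genes. The share was 5.24% of 1621 promoters of genes called higher and 4.51% of 1707 promoters of genes called lower. Of 138 genes examined by name, 91 matched a promoter by symbol and 11 of them held the motif. Higher among the 11 were Cxcl14, Epcam, Ucn2, Gbp2, Cxcl10, Spry3 and Ripk3. Cntf, Mal and Cadm3 were lower, and Cd68 was not called. Nefl, Ngfr and Scd1 had no entry.

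Among transcription factors, 10 of 17 regulators of immature and repair Schwann cells and 11 of 22 immediate early genes were called higher in the libraries labelled Tg. The lists overlap: Jun, Egr1 and Egr3 are in both, and Jun and Sox2 also in the marker list of immature or repair Schwann cells. Of 301 transcription factors tested, 61 were higher and 30 lower (20.3% and 9.97%, beside 12.5% and 13.3% of all genes), with a median log2 fold change of 0.05. With total counts only, 132 were higher and 4 lower (43.9% and 1.33%, beside 38.7% and 5.26% of all genes). Leaving out Tg replicate 3 left 19 lower in place of 30.

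In the list of factors of immature or repair Schwann cells the median log2 fold change was 0.62 (11 higher and 0 lower with total counts only). By edgeR and by DESeq2 0 were lower, and 2 were at an unadjusted p under 0.05. Runx2, a RUNX family factor best known from bone, had 3.11, 4.28, 1.56 and 5.62 normalized CPM in libraries labelled Wt and 23.8, 23.1, 25.5 and 28.5 in those labelled Tg (log2 fold change 2.75, SE 0.23, adjusted p = 6.57e-09). The Tg libraries lay close to each other. Sox2, which holds Schwann cells in the immature state, had 11.6, 12.2, 17.5 and 14 against 41.7, 34.8, 41.4 and 37.9 (log2 fold change 1.5, SE 0.15, adjusted p = 8.26e-08). Jun, the AP-1 factor central to repair cells, had 62.2, 49.6, 38.3 and 45.2 against 125, 113, 117 and 101 (log2 fold change 1.22, SE 0.11, adjusted p = 1.56e-08). Also higher were Egr1 (log2 fold change 1.37), Egr3 (1.77) and the stress-responsive Atf3 (1.10).

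Immediate early genes, which respond within minutes to growth factor or stress signals, had 11 of 22 members higher and 1 lower. With total counts only 16 were higher and 0 lower. Fos had 11, 7.53, 5.77 and 7.26 normalized CPM against 43.0, 33.3, 40.2 and 29.6 (log2 fold change 2.21, SE 0.22, adjusted p = 6.35e-08). Maff, a small MAF protein, rose by a log2 fold change of 1.72 (SE 0.20), and Junb by 1.44 (SE 0.31), the latter with a wide spread of 5.56 to 13 among the Tg libraries. Of 35 bZIP factors, the class that holds Fos, Jun, Atf3 and Maff, 13 were higher and 3 lower.

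Factors that drive myelination were mostly higher or not called with TMM, beside 11 of 21 myelin protein genes that were lower and 1 that was higher. With total counts only, 8 of the myelin protein genes were lower and 6 higher. Egr2, the main activator of myelin genes, had 344, 320, 338 and 416 normalized CPM in libraries labelled Wt and 327, 309, 414 and 390 in those labelled Tg. The libraries interleaved, and Egr2 was not called (log2 fold change 0.02, SE 0.14, adjusted p = 0.926, with values of either sign when single libraries were left out). Sox10, needed at every stage of the Schwann cell lineage, had 238, 215, 168 and 156 against 324, 252, 256 and 217. It was called (log2 fold change 0.43, SE 0.15, adjusted p = 0.0341), but the groups overlapped. Sox10 lost the call without Wt replicate 3 or 4 or Tg replicate 1 or 3 (adjusted p from 0.056 to 0.143), at log2 fold changes of 0.313 to 0.44. The call was also lost with the P18 libraries alone (0.0918, at 0.434) and with a term for Y-linked transcripts (0.0761, at 0.385). Pou3f2, a POU factor of the promyelinating stage, rose from 6.74 ± 2.07 to 19.4 ± 1.99 (SD), and Tead1, a partner of Yap and Taz, from 7.93 ± 1.80 to 18.3 ± 1.6. Zeb2, which represses inhibitors of Schwann cell differentiation, rose by a log2 fold change of 0.47 (SE 0.08). Nab1, a co-regulator that binds Egr2, fell from 135 ± 11.1 to 86.7 ± 7.74 (log2 fold change -0.64, SE 0.08, adjusted p = 2.3e-06). In total, 5 of 9 promyelinating factors were higher and 1 lower.

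Of the factor families, 6 of 13 SOX factors were higher and 1 lower (7 and 0 with total counts only). Of 18 ETS factors 6 were higher and 1 lower (11 and 0), and of 15 IRF and STAT factors 5 and 1 (11 and 0). Of 32 bHLH factors 5 were higher and 4 lower, which became 14 and 1 with total counts only. Over all genes 12.5% were higher and 13.3% lower, and differences between families were not tested. Of 20 forkhead factors 1 was higher and 3 lower (11 and 0 with total counts only), and of 28 homeobox, POU, PAX and LIM factors 1 and 2 (6 and 1 with total counts only). Of 24 KLF and SP factors 0 were higher and 3 lower, and of 23 HOX factors 0 and 2, by edgeR. These became 9 and 0, and 1 and 1, with total counts only. DESeq2 called 0 higher in both lists, and at an unadjusted p under 0.05 there were 5 KLF and SP factors and 0 HOX factors. The proliferation factor Foxm1 was the forkhead gene called higher (log2 fold change 0.96, SE 0.16). Mycn, a MYC family factor, rose from 2.81 ± 0.789 to 9.12 ± 1.76, and Stat3, which relays cytokine signals, rose as well (log2 fold changes 1.68 and 0.86). On the lower side were Twist1 (log2 fold change -0.76) and Shox2 (-1.08), both factors of mesenchymal cells, and Sox17 (-0.62, adjusted p = 0.00638), a factor of endothelial cells, which lost the call with total counts only (adjusted p = 0.0638). Endothelial markers summed to 716 to 890 normalized CPM in libraries labelled Wt and 527 to 673 in those labelled Tg, with 5 of 11 members lower. With total counts only 2 of 11 were lower and the sums were 615 to 760.0 CPM and 538 to 695 CPM, which overlap. Their part in the Sox17 value was not tested.

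Genes of the cell cycle were the list with the largest share higher, 25 of 34 (73.5%, beside 12.5% of all genes). The median log2 fold change was 0.79. By edgeR, by DESeq2 or at an unadjusted p under 0.05, 0 were lower, beside 13.3% of all genes by edgeR. With total counts only 28 were higher and 0 lower, where 38.7% and 5.26% of all genes were. Ccnd1, which carries cells from G1 towards S phase, had 165, 157, 129 and 115 normalized CPM against 404, 370, 433 and 372 (log2 fold change 1.48, SE 0.09, adjusted p = 6.38e-11). Mki67, a general marker of cycling cells, was at 30.9 ± 4.46 against 58.9 ± 2.52 (SD; log2 fold change 0.94, SE 0.08, adjusted p = 1.42e-08). Rrm2, which makes deoxynucleotides, and Ube2c, which acts in mitotic exit, rose by log2 fold changes of 1.56 and 1.31. Mki67 was higher in younger nerves, at 116 normalized CPM in the P6 and 455 in the E21 libraries labelled Wt, whereas Ccnd1 at P18 in the libraries labelled Tg (395) lay above P6 (282) and below E21 (417) of those labelled Wt. Of the 25 genes called higher, 0 had a Tg mean above the Wt means of both E21 and P6, against 878 of all 1992 genes called higher.

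In signalling, the growth factors Nrg1, Btc and Shh and 11 of 20 feedback genes of the ERK pathway were higher in the libraries labelled Tg, while Cntf, Tgfa and Fgf1 were lower. Of 382 tested genes, 83 were higher and 58 lower (21.7% and 15.2%, beside 12.5% and 13.3% of all genes). The median log2 fold change was -0.02. Scaled to total counts only, 38.7% were higher and 7.33% lower, beside 38.7% and 5.26% of all genes.

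The neuregulin and EGF family had 6 of 12 members higher and 3 lower (7 and 2 with total counts only). Nrg1, the ligand of Erbb3, had 3.29, 2.59, 3.60 and 2.78 normalized CPM in libraries labelled Wt and 24.2, 17.5, 19.2 and 19.6 in those labelled Tg (log2 fold change 2.73, SE 0.18, adjusted p = 8.03e-11). Btc (betacellulin), a ligand of the EGF receptor, had 2.58, 2.05, 0.120 and 3.54 against 22.1, 19.7, 23.9 and 21.3 (log2 fold change 3.31, SE 0.34, adjusted p = 9.78e-08). The lowest Btc value was in the shallowest library. Hbegf, another EGF receptor ligand, rose by a log2 fold change of 0.61 and Adam17, a protease that sheds EGF family ligands and cleaves neuregulin, by 0.94. The receptors moved less: Erbb3 rose from 548 ± 18.4 to 759 ± 20.3 (log2 fold change 0.47, SE 0.06) and Erbb2 from 87.3 ± 4.66 to 110 ± 7.90 (0.33, SE 0.07). Tgfa went the other way, with 161, 162, 169 and 153 against 49.8, 58.6, 54.5 and 59.8 (log2 fold change -1.53, SE 0.12, adjusted p = 1.83e-09). Thus ligands of one family were found on both sides.

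Of 25 neurotrophic factors and receptors, 9 were higher and 3 lower (36% and 12%, beside 12.5% and 13.3% of all genes). With total counts only 15 were higher and 2 lower. Cntf, a trophic factor that mature Schwann cells store, had 382, 364, 451 and 442 normalized CPM in libraries labelled Wt and 127, 146, 136 and 137 in those labelled Tg (log2 fold change -1.58, SE 0.10, adjusted p = 3.57e-11). Clcf1, a cytokine that signals through the receptor of Cntf, had 7.55, 9.16, 2.40 and 7.83 against 21.8, 20.9, 23.3 and 21.6 (log2 fold change 1.67, SE 0.21, adjusted p = 2.79e-06). So the stored factor was lower and the related cytokine higher in the libraries labelled Tg. The GDNF receptors split as well: Gfra1, the part that binds GDNF, rose from 104 ± 5.91 to 234 ± 16.1 (log2 fold change 1.17, SE 0.07), and Ret, the signalling part, fell from 25.6 ± 5.37 to 8.15 ± 1.84 (log2 fold change -1.65, SE 0.21).

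Feedback genes of the ERK pathway, which are induced by and dampen receptor tyrosine kinase signals, had 11 of 20 members higher, with a median log2 fold change of 0.56. By edgeR and DESeq2 0 were lower, and 1 was at an unadjusted p under 0.05. Dusp4, an ERK phosphatase, had 18.5, 15.1, 16.8 and 11.1 normalized CPM against 71.6, 72.9, 66.1 and 64.1 (log2 fold change 2.17, SE 0.13, adjusted p = 1.71e-11). Spry3, a Sprouty inhibitor, rose by a log2 fold change of 2.16 (SE 0.26) at low levels of 0.240 to 2.04 against 4.68 to 7.43. Among FGF genes 3 of 20 were higher and 4 lower (3 and 3 with total counts only). Fgf1 fell from 306 ± 56.1 to 117 ± 3.37 (log2 fold change -1.38, SE 0.09), while the receptor Fgfr2 rose from 24.1 ± 3.72 to 37.5 ± 6.01 (0.64, SE 0.12).

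Shh (sonic hedgehog), a ligand absent from intact adult Schwann cells and made by repair cells, had 2.93, 2.95, 3.48 and 2.65 normalized CPM in libraries labelled Wt and 45.6, 30.6, 44.6 and 37.2 in those labelled Tg (log2 fold change 3.73, SE 0.26, adjusted p = 2.09e-10). The lowest Tg library lay far above the highest Wt library. Shh was also called at P6 (log2 fold change 3.79, adjusted p = 0.0043), where its means were only 0.0388 and 0.633. Ptch1, the hedgehog receptor and itself a hedgehog target, rose by a log2 fold change of 0.39 (SE 0.08) and Notch1 by 0.59 (SE 0.13). Over both pathways 5 of 30 genes were higher and 5 lower (7 and 1 with total counts only).

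In the TGF-beta and BMP pathway 10 of 56 were higher and 9 lower (17.9% and 16.1%), and in the WNT pathway 7 of 47 and 5 (14.9% and 10.6%), beside 12.5% and 13.3% of all genes. With total counts only these were 22 and 2, and 16 and 3. Fstl3, which binds activins, and Bmp7 rose by log2 fold changes of 1.27 and 1.24, and Dkk3, a secreted Dickkopf family member, by 0.96. Sfrp5, a secreted WNT binder and also a marker of perineurial cells, fell from 188 ± 33.9 to 87.3 ± 10.2 (log2 fold change -1.11, SE 0.14). Perineurial markers summed to 1680 to 2140 normalized CPM in libraries labelled Wt and 1820 to 1960 in those labelled Tg, with Lypd2 at 0 throughout. Of 7 tested 2 were lower, and 0 were higher by edgeR, by DESeq2 or at an unadjusted p under 0.05. With total counts only 2 were higher and 2 lower. The part of these markers in the Sfrp5 value was not tested. In the IGF, PDGF and VEGF pathways 6 of 27 were higher and 9 lower (8 and 6 with total counts only). Igfbp3, which binds IGFs, and Met, the receptor of Hgf, rose by log2 fold changes of 1.14 and 1.40, and Igf2 fell from 1213 ± 197 to 626 ± 58.6 (-0.95, SE 0.10). Kdr, the VEGF receptor of endothelial cells, fell from 79.9 ± 8.63 to 43.4 ± 7.70 (log2 fold change -0.88, SE 0.12). It moved with the endothelial marker sum given above, of which it is a member, and the part of that sum in the difference was not tested.

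Guidance genes had 11 of 63 members higher and 13 lower (24 and 8 with total counts only). Sema5a, a semaphorin, had 1196, 1082, 1579 and 1314 normalized CPM in libraries labelled Wt and 439, 470, 423 and 462 in those labelled Tg (log2 fold change -1.53, SE 0.10, adjusted p = 1.77e-10). The ephrin receptors went both ways: Ephb1 rose from 17.5 ± 3.67 to 49.9 ± 3.60 (log2 fold change 1.5, SE 0.19) and Epha4 fell from 7.38 ± 1.97 to 3.15 ± 0.314 (-1.24, SE 0.18). Of 65 adhesion and orphan G protein-coupled receptors 12 were higher and 7 lower (18.5% and 10.8%, beside 12.5% and 13.3% of all genes). With total counts only 23 were higher and 1 lower. Adgrl3 (latrophilin 3) and the lysophosphatidic acid receptor Lpar3 rose by log2 fold changes of 1.67 and 1.69. Rgs16, which shortens G protein signals, rose by 1.91 (SE 0.18), and 3 of 17 genes of its class were higher.

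**Figure D4:**
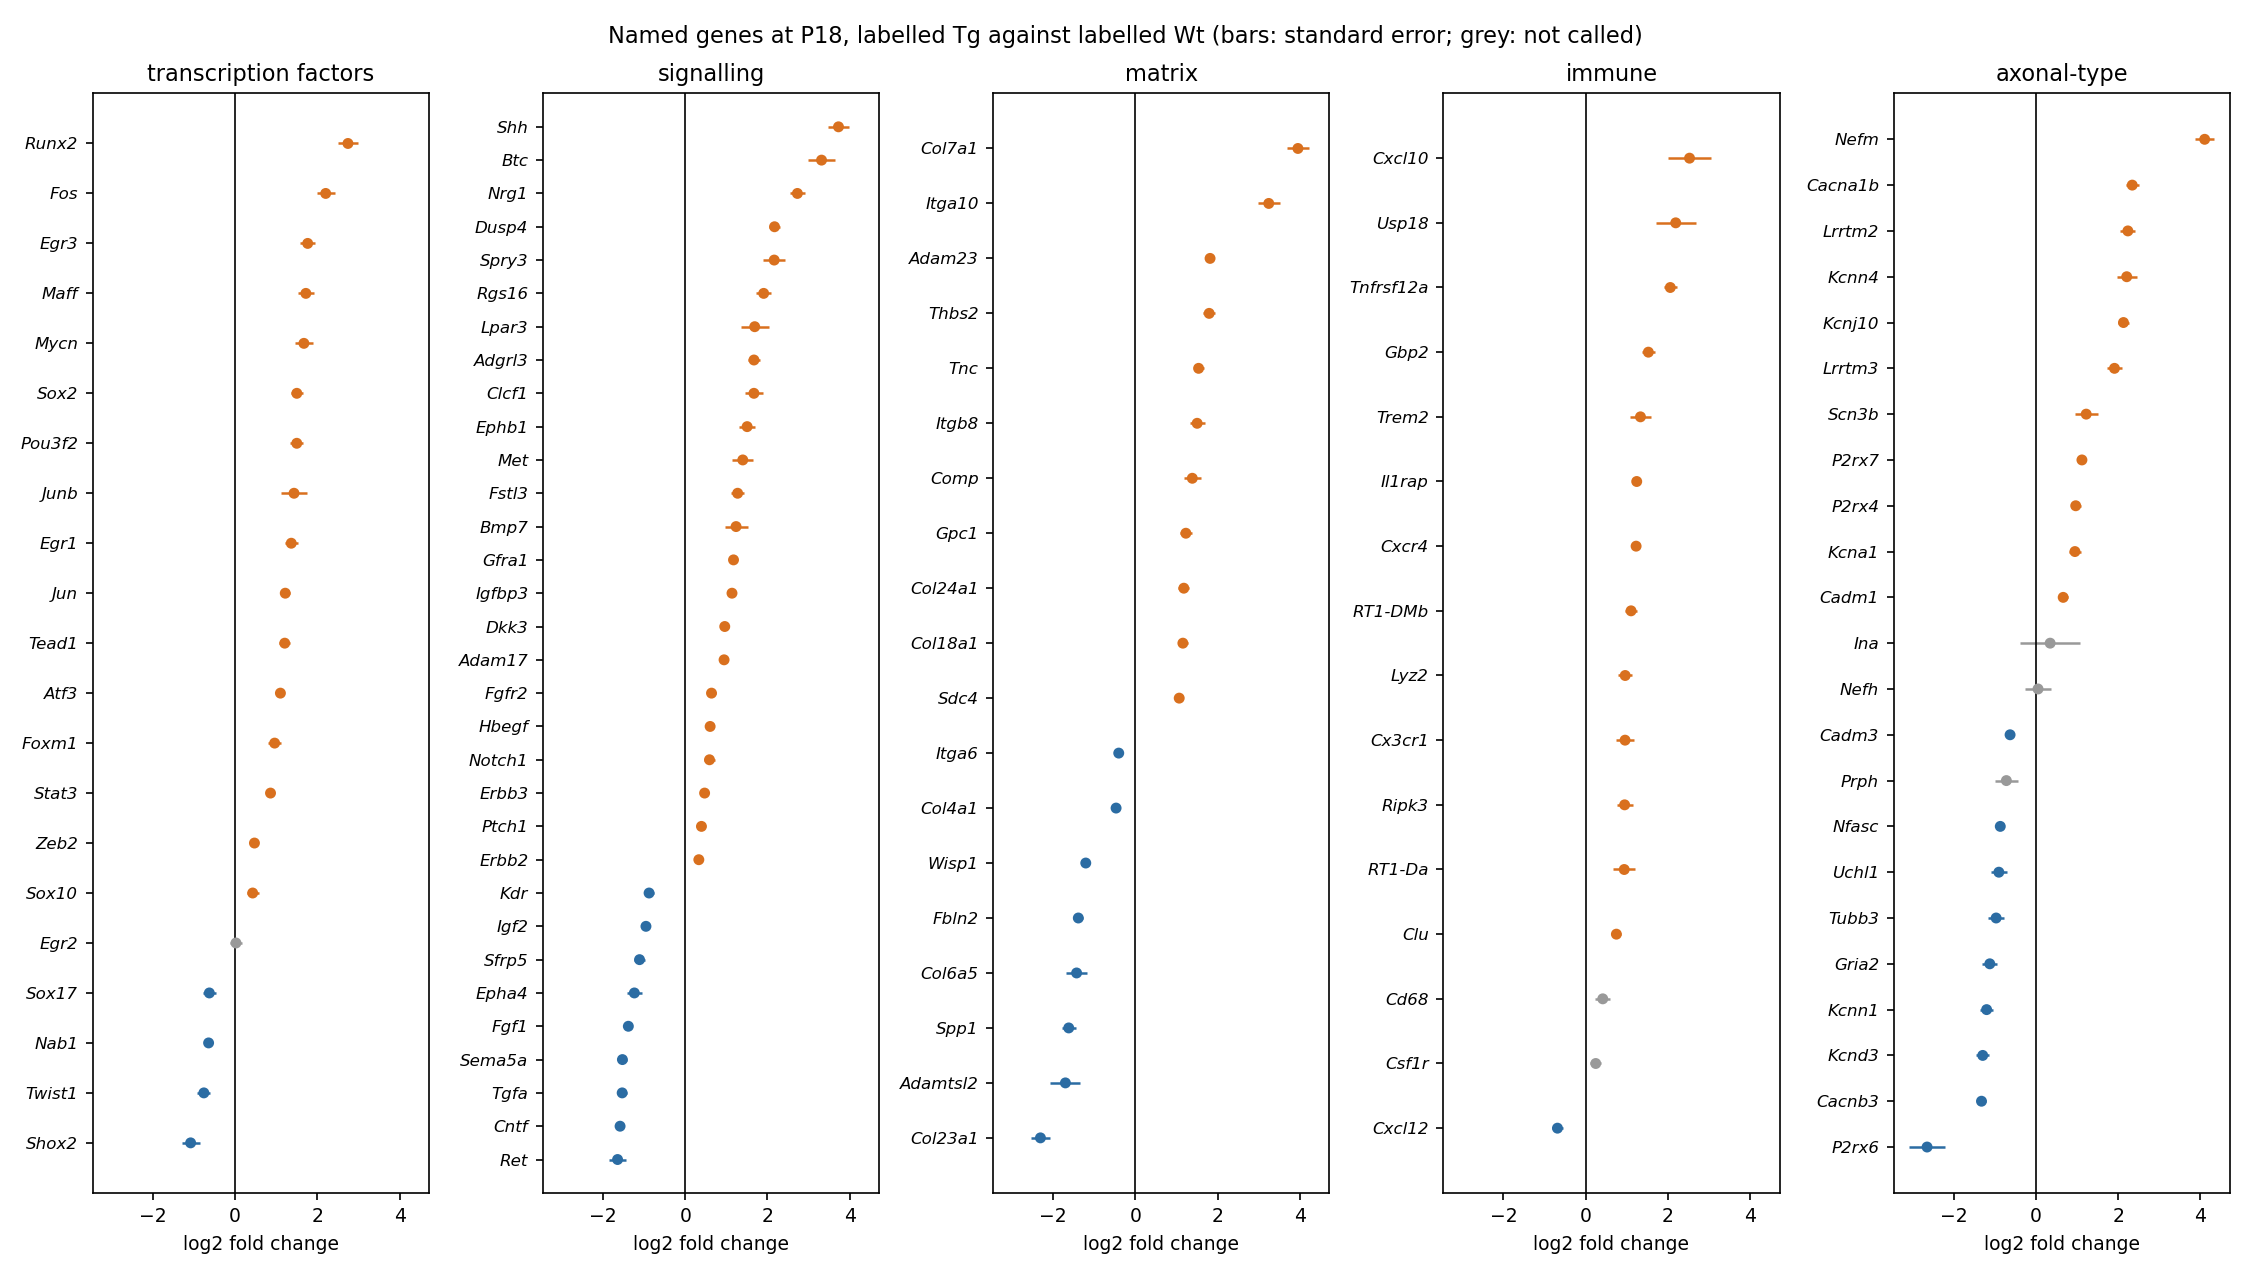
Log2 fold change of the named genes of each programme at P18, labelled Tg over labelled Wt, with bars at the standard error. Orange genes were called higher, blue genes called lower and grey genes not called. Signalling and axonal-type genes lie on both sides of 0, whereas of the named immune genes 1 (Cxcl12) was called lower.

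In the matrix programme about as many genes were higher as lower: Col7a1, Itga10, Thbs2 and Tnc rose in the libraries labelled Tg, and Col23a1, Spp1 and Fbln2 fell. Of 212 tested genes, 46 were higher and 47 lower (21.7% and 22.2%, beside 12.5% and 13.3% of all genes). The median log2 fold change was -0.09. Scaled to total counts only, 76 were higher and 26 lower (35.8% and 12.3%, beside 38.7% and 5.26% of all genes). A term for Y-linked transcripts, added after the data were seen, gave 41 higher and 58 lower.

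Of 40 collagens, 10 were higher and 8 lower (14 and 6 with total counts only). Col7a1, the collagen of anchoring fibrils, had 3.20, 3.07, 1.32 and 2.46 normalized CPM in libraries labelled Wt and 41.6, 35.7, 44.7 and 37.5 in those labelled Tg (log2 fold change 3.95, SE 0.27, adjusted p = 2.11e-10). The lowest Tg library was more than 10 times the highest Wt library. Col18a1, of vascular and Schwann cell basement membranes, rose from 262 ± 48.5 to 582 ± 73.1 and the fibrillar Col24a1 from 39.4 ± 4.88 to 89.1 ± 7.20 (log2 fold changes 1.15 and 1.18). Col23a1, a transmembrane collagen, had 61.1, 49.7, 28.6 and 33.4 against 9.39, 12.2, 5.25 and 8.10 (log2 fold change -2.31, SE 0.24, adjusted p = 1.46e-07). Col6a5 fell by a log2 fold change of 1.43 (SE 0.26), with Wt replicate 2, the library with the most muscle RNA, at 111 against 52.9 to 61.3 in the other Wt libraries. Col4a1, the main collagen of basement membranes, fell from 1945 ± 257 to 1403 ± 204 (log2 fold change -0.47, SE 0.10), and lost the call with total counts only (adjusted p = 0.0741). Of 26 basement membrane genes 5 were higher and 6 lower, and with total counts only 10 were higher and 0 lower, so that the direction of this list rests on the scaling.

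Integrins had 10 of 29 members higher and 3 lower (34.5% and 10.3%, beside 12.5% and 13.3% of all genes). Their median log2 fold change was 0.29. With total counts only 14 were higher and 0 lower. Itga10, a collagen-binding subunit, had 3.38, 2.47, 1.80 and 2.21 normalized CPM against 25.5, 20.4, 26.1 and 21.8 (log2 fold change 3.24, SE 0.27, adjusted p = 4.06e-09). Itgb8, which activates latent TGF-beta, rose from 31.2 ± 6.49 to 87.6 ± 11.4 (log2 fold change 1.5, SE 0.18). Itga6, the laminin receptor subunit of Schwann cells, fell from 1889 ± 182 to 1425 ± 37.3 (-0.41, SE 0.06), and lost the call with total counts only (adjusted p = 0.0611).

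Matricellular and elastic fibre genes had 7 of 44 members higher and 11 lower (13 and 7 with total counts only). Thbs2 (thrombospondin 2) had 280, 364, 309 and 267 normalized CPM in libraries labelled Wt and 1067, 954, 1106 and 1097 in those labelled Tg (log2 fold change 1.79, SE 0.14, adjusted p = 1.6e-09). Tnc (tenascin C), a matrix protein of developing and injured nerve, had 84.2, 102, 53.5 and 86.2 against 263, 205, 240 and 240 (log2 fold change 1.53, SE 0.12, adjusted p = 1.63e-09). In the opposite direction, Spp1 (osteopontin) had 258, 271, 236 and 414 against 91.0, 108, 106 and 78.3 (log2 fold change -1.62, SE 0.17, adjusted p = 2.33e-07). That the labels did not overlap in Thbs2, Tnc and Spp1 was a condition of naming them. The elastic fibre protein Fbln2 fell from 419 ± 59.5 to 160 ± 21.9 and Wisp1, a CCN family protein, from 191 ± 30.2 to 82.5 ± 4.65 (log2 fold changes -1.39 and -1.21). Comp, the cartilage matrix protein, rose by a log2 fold change of 1.38 at low levels.

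Proteoglycans had 4 of 30 members higher and 9 lower, with a median log2 fold change of -0.32 (8, 5 and -0.07 with total counts only). The cell surface heparan sulfate proteoglycans Gpc1 and Sdc4 rose by log2 fold changes of 1.23 (SE 0.15) and 1.06 (SE 0.09). Lum (lumican), a fibril-associated proteoglycan and fibroblast marker, fell from 1137 ± 29.1 to 802 ± 79.7 (log2 fold change -0.50, SE 0.13), and lost the call with total counts only (adjusted p = 0.0858). Fibroblast markers summed to 51000 to 66500 normalized CPM in libraries labelled Wt and 42800 to 54800 in those labelled Tg. Of 11 such markers 2 were lower and 0 higher by edgeR and DESeq2 (1 higher at an unadjusted p under 0.05), which became 0 lower and 1 higher with total counts only. With the term for Y-linked transcripts 5 were lower and 0 higher. The part of these markers in the matrix results was not tested. Of 51 metalloproteinases and inhibitors 11 were higher and 13 lower (18 and 8 with total counts only), with Adam23, a catalytically inactive member that binds Lgi proteins, at 17.6 ± 2.77 against 62.0 ± 8.08 (log2 fold change 1.81, SE 0.10) and Adamtsl2 at 24.2 ± 3.70 against 7.45 ± 4.05 (-1.70, SE 0.36).

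**Figure D5:**
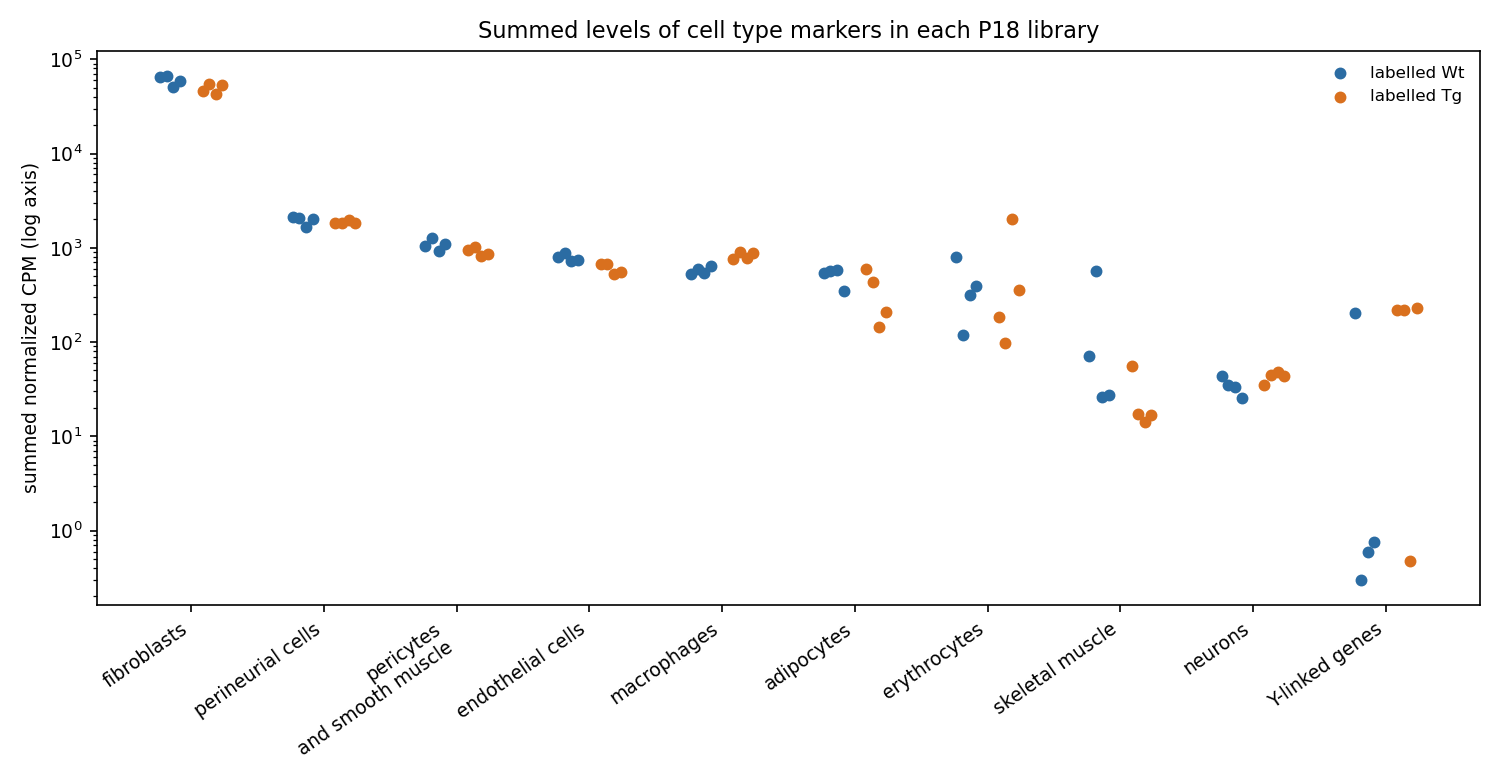
Summed normalized CPM (log axis) of the markers of each cell type in every P18 library, by genotype label. With TMM scaling, macrophage sums are higher and endothelial sums lower in all libraries labelled Tg (the endothelial sums overlap with total counts only), fibroblast and pericyte sums overlap, and muscle, erythrocyte and Y-linked sums differ between single libraries.

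Immune genes were mostly higher where they were called. Of 229 tested, 53 were higher and 9 lower (23.1% and 3.93%, beside 12.5% and 13.3% of all genes). The median log2 fold change was 0.20 against 0.00 for all genes. Total counts only gave 101 higher and 4 lower (44.1% and 1.75%, beside 38.7% and 5.26% of all genes). The lower count was 3 without Tg replicate 3 and 5 without Tg replicate 4. Macrophage markers summed to 528 to 642 normalized CPM in libraries labelled Wt and 752 to 908 in those labelled Tg, and their part in the other immune results was not tested.

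Of 24 macrophage genes, 12 were higher (50%, beside 12.5% of all genes), with a median log2 fold change of 0.58. With total counts only 17 were higher, where 38.7% of all genes were. By edgeR and DESeq2 0 were lower, and 1 was at an unadjusted p under 0.05. Lyz2, the lysozyme of myeloid cells, had 129, 155, 120 and 174 normalized CPM in libraries labelled Wt and 227, 315, 278 and 308 in those labelled Tg (log2 fold change 0.96, SE 0.17, adjusted p = 0.000169). Trem2, a lipid-sensing receptor of macrophages, had 4.44, 4.94, 2.64 and 4.04 against 11.2, 9.68, 10.2 and 9.88 (log2 fold change 1.33, SE 0.25, adjusted p = 0.000364). The chemokine receptor Cx3cr1 rose too (log2 fold change 0.96, SE 0.21). Of general macrophage markers added after their values were seen, Cd68 was at 8.87 ± 1.86 against 11.8 ± 1.14 (log2 fold change 0.42, adjusted p = 0.0898) and Csf1r, the receptor on which these cells depend, at 69.1 ± 5.05 against 82.0 ± 8.20 (0.24, adjusted p = 0.204). Neither was called, and both were called with total counts only (adjusted p = 0.00405 and 0.00453), Cd68 also without Wt replicate 2 (0.044) and Csf1r with a replicate block (0.0431). By edgeR 0 of 5 lymphocyte genes and 0 of 12 neutrophil and mast cell genes were called. DESeq2 called 1 lymphocyte gene higher, and at an unadjusted p under 0.05 there were 1 lymphocyte gene, higher, and 3 neutrophil or mast cell genes, lower.

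MHC class II genes, which present antigen, had 6 of 9 members higher (66.7%, beside 12.5% of all genes), with a median log2 fold change of 0.75. With total counts only 7 were higher, where 38.7% of all genes were. The lower side held 0 by edgeR, by DESeq2 and at an unadjusted p under 0.05. RT1-Da had 26.7, 37.5, 17.9 and 39.6 normalized CPM against 42.3, 44.9, 81.9 and 65.5 (log2 fold change 0.94, SE 0.27, adjusted p = 0.0117), with a wide spread. It lost the call without Tg replicate 3 (adjusted p = 0.0621) and under a replicate block (0.068, at a log2 fold change of 0.93). RT1-DMb, which loads peptides, rose from 4.87 ± 1.10 to 10.6 ± 1.14 (log2 fold change 1.10, SE 0.15). Reads of these near-identical family members were divided by estimation, so that the level of each is uncertain. Of 25 complement genes 7 were higher and 1 lower (28% and 4%), or 16 and 0 with total counts only. Among those higher was Clu (clusterin), an inhibitor of complement, with 152 ± 22.7 against 255 ± 32.0 (log2 fold change 0.75, SE 0.11).

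Interferon response genes had 6 of 26 members higher and 1 lower (23.1% and 3.85%, beside 12.5% and 13.3% of all genes). With total counts only 13 were higher and 0 lower, where 38.7% and 5.26% of all genes were. Gbp2, a guanylate-binding protein, had 32.3, 35.4, 37.2 and 33.1 normalized CPM in libraries labelled Wt and 88.2, 81.8, 113 and 114 in those labelled Tg (log2 fold change 1.52, SE 0.16, adjusted p = 1.49e-07). Usp18, a brake on interferon signals, had 1.42, 1.57, 1.68 and 2.71 against 4.09, 4.25, 4.72 and 21.2, so that its log2 fold change of 2.19 (SE 0.48) was carried in part by Tg replicate 4 and was 1.23 without it (adjusted p = 0.0123). The interferon-induced chemokine Cxcl10 was also highest in that library, with 10.9 against 3.50 to 5.78 in the other Tg libraries and 0.799 to 1.39 in the libraries labelled Wt (log2 fold change 2.52, SE 0.51). With the term for Y-linked transcripts 3 interferon response genes in place of 6 were higher.

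Of 33 chemokines and their receptors 7 were higher and 5 lower (7 and 3 with total counts only). Besides Cxcl14 and Cxcl10, the receptor Cxcr4 rose from 5.41 ± 0.285 to 12.7 ± 1.59 (log2 fold change 1.23, SE 0.10), while its ligand Cxcl12 fell from 166 ± 12.7 to 103 ± 16 (-0.69, SE 0.13). Among 70 interleukins, TNF family members, colony stimulating factors and receptors, 12 were higher and 2 lower (17.1% and 2.86%). Of all genes 12.5% were higher and 13.3% lower. With total counts only 28 were higher and 1 lower, where 38.7% and 5.26% of all genes were. Tnfrsf12a, the receptor of the cytokine Tweak, had 9.15, 10.8, 12.5 and 6.88 normalized CPM against 51.4, 34.6, 43.9 and 32.6 (log2 fold change 2.06, SE 0.16, adjusted p = 1.51e-09), and Il1rap, a subunit of interleukin 1 receptors, rose by a log2 fold change of 1.24 (SE 0.11). In the list of toll-like receptors and NF-kB genes, 6 of 30 were higher (20%), or 17 with total counts only. By edgeR, by DESeq2 or at an unadjusted p under 0.05, 0 were lower. Among the 6 was Ripk3, a kinase of necroptosis (log2 fold change 0.95, SE 0.19), which lost its call under a replicate block (adjusted p = 0.0537) at a log2 fold change of 0.999.

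Axonal-type genes, those better known from neurons, did not move together. Of 233 tested, 38 were higher and 42 lower (16.3% and 18%, beside 12.5% and 13.3% of all genes), with a median log2 fold change of -0.11. The split under total counts only was 55 higher and 23 lower (23.6% and 9.87%, beside 38.7% and 5.26% of all genes). Neuronal markers summed to 25.7 to 43.9 normalized CPM in libraries labelled Wt and 35.3 to 48.3 in those labelled Tg. Of 8 tested, 1 rose (Map2, a microtubule protein of dendrites, log2 fold change 1.38, SE 0.15) and 1 fell (Tubb3, neuronal tubulin, log2 fold change -0.97, SE 0.20).

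Of 5 intermediate filament genes of neurons, 2 were called, both higher. Nefm, the medium neurofilament subunit, had 14, 11.6, 11.7 and 13.8 normalized CPM in libraries labelled Wt and 144, 204, 282 and 249 in those labelled Tg (log2 fold change 4.10, SE 0.24, adjusted p = 1.55e-11), and it followed the order of Nefl over the Tg libraries, lowest in replicate 1 and highest in replicate 3. The others did not share this. Nefh, the heavy subunit, had 3.91, 2.77, 2.40 and 2.59 against 2.97, 4.87, 2.65 and 1.58 (log2 fold change 0.05, SE 0.31, adjusted p = 0.926, negative without Wt replicate 3 or Tg replicate 2). Ina (internexin) was under 1 in every P18 library, with a log2 fold change of 0.35 (SE 0.73, adjusted p = 0.775) that became 2.10 without Wt replicate 1 and negative without Tg replicate 3. Prph (peripherin) was at 3.96 ± 2.07 against 2.42 ± 0.684 (log2 fold change -0.72, SE 0.27, adjusted p = 0.0559), and was called lower in 6 of the alternative fits (adjusted p from 0.00905 to 0.0495).

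Potassium channels had 9 of 53 members higher and 12 lower (11 and 4 with total counts only). Kcnj10, an inward rectifier known from glia, had 8.08, 7.41, 5.29 and 4.67 normalized CPM against 27.7, 26.9, 28.1 and 28.9 (log2 fold change 2.13, SE 0.13, adjusted p = 2.93e-11). Kcnn4, a calcium-activated channel, rose from 1.81 ± 0.919 to 8.54 ± 0.789 and Kcna1, a subunit of juxtaparanodal channels, from 34.4 ± 5.91 to 66.2 ± 3.84 (log2 fold changes 2.21 and 0.95). Kcna1 thus rose where the related Kcna6 was lower. Kcnd3 fell from 65.1 ± 8.15 to 26.6 ± 3.15 and Kcnn1 from 10.5 ± 0.903 to 4.59 ± 0.282 (log2 fold changes -1.29 and -1.20).

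Of 38 sodium and calcium channels 5 were higher and 7 lower (9 and 4 with total counts only). Cacna1b, the pore of the presynaptic N-type calcium channel, had 1.6, 2.05, 1.80 and 1.71 normalized CPM against 7.06, 8.93, 10.2 and 10.3 (log2 fold change 2.34, SE 0.16, adjusted p = 2.11e-10). The sodium channel subunit Scn3b rose by a log2 fold change of 1.22 (SE 0.28). Cacnb3, an accessory calcium channel subunit, fell from 108 ± 15 to 43.1 ± 4.85 (-1.32, SE 0.11).

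Of 62 transmitter receptors 8 were higher and 7 lower (14 and 4 with total counts only). With TMM the shares, 12.9% and 11.3%, were near the 12.5% and 13.3% of all genes. The transmitter receptors included ATP-gated P2X receptors. P2rx7 had 108, 111, 118 and 98.8 normalized CPM against 225, 227, 257 and 236 (log2 fold change 1.12, SE 0.08, adjusted p = 8.17e-10), and P2rx4 rose from 25.2 ± 4.77 to 49.6 ± 1.16. P2rx6 fell from 7.12 ± 0.530 to 1.13 ± 0.349 (log2 fold change -2.65, SE 0.44). Gria2, a glutamate receptor subunit, fell by a log2 fold change of 1.12 (SE 0.18).

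Vesicle and synaptic genes had 10 of 57 members higher and 11 lower (13 and 8 with total counts only). The synaptic adhesion proteins Lrrtm2 and Lrrtm3 rose from 3.55 ± 1.28 to 16.2 ± 1.30 and from 4.16 ± 0.555 to 15.8 ± 1.96 (log2 fold changes 2.24 and 1.91). The neuronal hydrolase Uchl1 fell by a log2 fold change of 0.90 (SE 0.19). Of 22 genes of nodes and axoglial junctions 5 were higher and 7 lower (7 and 3 with total counts only). Nfasc (neurofascin), whose isoforms are made by both axon and Schwann cell, fell from 608 ± 20.5 to 333 ± 10.3 (log2 fold change -0.87, SE 0.09). Cadm3, an adhesion molecule of the internode, fell by a log2 fold change of 0.63 (SE 0.11), whereas Cadm1 rose by 0.66 (SE 0.11).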

How the data were processed

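RNA of rat sciatic nerves was sequenced as single-end 50 bp reads. The authors aligned them to rn6 with Bowtie2 2.0.2 called by RSEM 1.2.29 on an Ensembl annotation. The deposited table holds expected counts of 32402 genes from RSEM, without normalization or filter. The submitters' processing notes also name CASAVA 1.8.2. Reads that match more than 1 gene are shared out by estimation, so near-identical genes are uncertain. Expected counts were rounded to whole numbers. Every column matched a label and 0 columns were unused.

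The 15889 genes whose normalized counts averaged 5 or more over all libraries entered edgeR 4.0.16 (R 4.3.3), in 1 model of 24 libraries and 6 groups, with TMM factors, the quasi-likelihood test and Benjamini-Hochberg adjustment (threshold 0.05). The SE of a log2 fold change was obtained by dividing its size by the root of the F statistic. For P18, edgeR recovered 72 of the genes changed 2-fold and 68 of those changed 1.5-fold, of 200 changed in all, with 3 false calls when tested on simulated counts for 15889 genes. Libraries of a group differed by more than sampling noise (chi-square per degree of freedom 7.08 to 29.8), so none was counted as a copy.

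The gene lists and the genes compared were chosen with earlier results of these data known. Genes were named by rule: the 6 markers, Pmp22 and AC130064.1, the most abundant marker of each cell type, and, among called genes with normalized counts averaging 50 or more at P18 and no overlap between labels, the 3 highest and 3 lowest of each list and the 10 highest and lowest of all genes. Mbp, Egr1, Jun, Egr2, Sox10, Hbegf, Erbb3, Erbb2, Ptch1, Mki67, Cd68, Csf1r, Nefh, Ina, Prph, Igfbp2, Chl1 and Gfap were added after their values were seen. Not every gene that the rule named is reported here.

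Alternatives were DESeq2 1.42.0, other size factors, total counts only, other count filters, P18 libraries alone, a replicate block and leaving out each library. A fit without E21 and one with a term for Y-linked transcripts were added after seeing the data. Figures were drawn with matplotlib 3.10.9.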

Additional observations from a re-analysis of the deposited data

Results flagged for a closer look

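For the 6 marker genes, the genotype difference at P18 differed from that at P6 by a test of the difference itself (quasi-likelihood test of edgeR, Benjamini-Hochberg adjusted). The genes were picked with the P18 difference known, so these p-values are not independent evidence. The difference of the log2 fold changes was 4.47 for Nefl (4.99 at P18, 0.52 at P6, adjusted p = 1.28e-08), 3.56 for Cxcl14 (4.67 and 1.11, adjusted p = 4.07e-07) and 2.32 for Ngfr (2.19 and -0.13, adjusted p = 5.25e-10). It was -4.71 for St8sia2 (-5.12 and -0.42, adjusted p = 7.08e-08), -3.98 for Scd1 (-3.63 and 0.35, adjusted p = 1.76e-05) and -2.59 for Kcna6 (-2.81 and -0.21, adjusted p = 4.18e-05). In all 6 genes the 4 libraries labelled Tg lay on one side of the 4 labelled Wt at P18, the difference for which they were picked.

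Among the 276 groups formed by 138 named genes and 2 labels, 16 held a library far from its group, by the ratio of its gap to the range of the group (Dixon's test at its 95% critical value). Chance alone marks about 1 in 20 groups. In the libraries labelled Wt, replicate 1 stood high for AC130064.1 (ratio 1.0, a single count) and Ina (0.898) and low for Igfbp3 (0.861). Replicate 2, the library with most muscle RNA, stood high for Ephb1 (0.842), Rgs16 (0.885) and Col6a5 (0.855). Replicate 3, the shallowest, stood high for Scd1 (0.859) and Gria2 (0.894), and replicate 4 low for Ret (0.905).

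In the libraries labelled Tg, replicate 1 stood high for Adam17 (0.889) and low for Scn3b (0.91). Replicate 2 stood high for Mal (0.886) and low for Erbb2 (0.91) and Lrrtm3 (0.892). Replicate 3, with most erythrocyte RNA, stood low for Igf2 (0.955), and replicate 4 high for the interferon response gene Usp18 (0.964, 21.2 against 4.09 to 4.72 normalized CPM).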

How the results depend on the processing

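With total counts only, 6989 genes were called, 6153 higher and 836 lower in the libraries labelled Tg. Of the transcription factors 43.9% were then higher and 1.33% lower, of signalling genes 38.7% and 7.33%, of matrix genes 35.8% and 12.3%, of immune genes 44.1% and 1.75%, and 9.87% of axonal-type genes were lower. With the P18 libraries alone, 2525 of 15889 genes were called (1145 higher, 1380 lower) and 5.65% of transcription factors were lower. Of the 2525 genes, 2453 were also among the 4103. Without a count filter 4.5% of transcription factors, 1.64% of immune genes and 9.41% of axonal-type genes were lower, over more genes. That fit called 1935 genes higher and 1743 lower. Each share belongs to the gene counts of its own fit, and not to the 12.5% and 13.3% of the main fit. Leaving out 1 P18 library at a time gave 3348 (without Tg replicate 3) to 4329 genes called, 6.31% to 9.63% of transcription factors lower and 1.31% to 3.93% of immune genes lower. DESeq2 called 4429 genes, the fit without E21 3757 and that with a term for Y-linked transcripts 3657.

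The labels tie replicate numbers to no animal. Same-numbered libraries correlated at 0.151, 0.0255, 0.0198 and 0.149 in their deviations from the group means. The values of numbers 1 and 4 were the largest of all pairings and those of 2 and 3 were not, so the data do not settle whether the numbers pair the libraries. With a replicate block, on the P18 libraries alone, 2374 of 15889 genes were called (1106 higher, 1268 lower). In that fit 4.65% of transcription factors were lower, and 14% of immune and 10.3% of axonal-type genes higher. These shares stand beside the counts of the same fit, and not beside the 12.5% and 13.3% of the main fit. RT1-Da (adjusted p = 0.068, edgeR) and Ripk3 (0.0537) lost their calls under the block, at log2 fold changes of 0.927 and 0.999 against 0.937 and 0.947 without it, and Csf1r gained one (0.0431).

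Among named genes that were not called, Egr2 turned to -0.0124, -0.0505 and -0.0078 without Wt replicate 2, Tg replicate 3 and Tg replicate 4, and ranged up to 0.119 without the others. Nefh turned to -0.0156 with the replicate block, -0.0104 without Wt replicate 3 and -0.275 without Tg replicate 2 (up to 0.272 without others). Ina ranged from -0.144 without Tg replicate 3 to 2.1 without Wt replicate 1. Calls of Cdh5 were lost with total counts only (adjusted p = 0.394) and without Wt replicate 2 (0.0528, edgeR). The cause of these shifts was not tested. Of 138 named genes, 137 kept direction and side of the threshold with DESeq2 and 138 with RLE factors and with TMM factors computed without myelin and the most abundant genes.

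Low counts limit the sizes for Epcam, Ucn2, Ina and other genes under 1 normalized CPM. Without Wt replicate 1 the log2 fold change moved from 8.77 to 10.7 for AC130064.1 and from 0.347 to 2.1 for Ina. Without Wt replicate 2 that of Pon1 moved from 3.96 to 4.82.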

Other observations

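The unfolded protein and heat shock response list had 3 of 30 members higher and 3 lower, with a median log2 fold change of 0.02. Higher were Atf3 (log2 fold change 1.10), Ppp1r15a (0.49) and Ddit3 (0.34). Lower were the small heat shock protein Cryab (-0.99) and the endoplasmic reticulum proteins Canx (-0.49) and Manf (-0.21). With total counts only, 15 were higher and 2 lower, so that the balance of this list rests on the scaling. These genes were named after their values were seen.

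Of 10 pericyte and smooth muscle markers 1 was higher and 3 lower (2 and 0 with total counts only). Among endothelial markers, Cdh5, a junction protein, fell from 156 ± 15.6 to 122 ± 10.7 normalized CPM (log2 fold change -0.37, SE 0.10), a call lost with total counts only (adjusted p = 0.394, edgeR) and without Wt replicate 2 (0.0528), and the surface sialomucin Emcn from 35.5 ± 3.17 to 24.4 ± 3.91 (-0.55, SE 0.11).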
